A study of Mus musculus with 4 samples.

Results

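Neutrophils carry their antimicrobial proteins and proteases in granules that form in sequence as the cell matures. Described here are 10 genes of secondary and tertiary granule proteins and of close companions: Ltf, Camp, Ngp, Lcn2, Mmp8, Mmp9, Cd177, Hp, Padi4 and Mmp25. They were named by symbol, and all 10 were found among the 19938 genes that the array measures with a probe set of 1 symbol, each with a single such probe set. The source was whole bone marrow from leukemic C57BL/6 mice, in which the MLL-AF9 fusion, an oncogene of acute myeloid leukemia, drives the disease. The wild-type group (MLL-AF9/Hes1+/+) and the Hes1-null group (MLL-AF9/Hes1-/-) each had 2 arrays, and MLL-AF9 is shared by both. Hes1 encodes a transcriptional repressor induced by Notch signalling, and the comparison asks what its loss changes in this leukemia. The labels do not state age, sex, how Hes1 was deleted, or whether the arrays came from separate mice. Whole marrow holds leukemic cells together with the cells the host still has.

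Secondary (specific) granules are filled at the myelocyte and metamyelocyte stages, after the primary granules with their myeloperoxidase and elastase, and tertiary (gelatinase) granules follow. The transcription factor C/EBP epsilon is required for the secondary granule genes, and their RNA is therefore widely used as a sign of late granulocytic maturation. MLL-AF9 leukemias consist largely of immature myeloid cells, in which these genes are usually low relative to mature neutrophils. Padi4, a nuclear and cytosolic enzyme that converts arginine in histones to citrulline, is a companion of late neutrophils and not granule cargo.

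Levels are log2 of the deposited array intensity. Differences subtract the wild-type mean from the Hes1-null mean on that scale and carry the standard error (SE) of limma's moderated test (n = 2 arrays per genotype). P-values were adjusted by Benjamini-Hochberg for all 19938 genes, and 0.05 was the threshold. The arrays had median intensities from 65.0 to 67.3. The 2 Hes1-null arrays stood farther apart than the wild-type ones: 3.43% of all genes lay at least 2-fold apart between the Hes1-null arrays and 0.547% between the wild-type arrays. The probe set of Hes1 lay at 5.59 and 5.79 in wild type and at 5.43 and 5.84 on the arrays labelled Hes1-null, so the genotypes overlapped (difference -0.06 ± 0.18, adjusted p = 0.968). The labels do not say whether its probes lie in the deleted part of the gene, so it does not check the genotypes. The probe set was also dim in both genotypes, at percentile 38.0 of level over all genes. How much of its signal is background cannot be read from the deposited values. The small number of arrays limits every value. The p-values measure the spread between these arrays, which may be technical.

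Ltf, Camp and Cd177 had the largest differences of the group, all lower in Hes1-null marrow, while the equally typical granule genes Ngp, Lcn2 and Hp had differences of -0.23, -0.30 and -0.24. Mmp8 was the only one of the 10 with a higher mean in Hes1-null marrow. Of the 10 genes, 1 fell with an adjusted p under 0.05 and 0 rose. Over all genes 0.0752% fell, 0.0702% rose and 0.145% passed in either direction. At an unadjusted p under 0.05 by limma, 4 of the 10 were lower and 0 higher, where 4.78% of all genes were lower and 3.51% higher. Both Hes1-null arrays lay below both wild-type arrays for 6 of the 10 (20.6% of all genes) and above them for 1 (17.4%), and for 3 the genotypes overlapped. The difference was below 0 for 9 of the 10 (53.6% of all genes) and at least 2-fold downward for 4 (1.25%). The median difference of the 10 genes was -0.51 (-0.33 without wild-type replicate 2), against -0.02 over all genes, whose 5th percentile was -0.51. In bulk RNA, fewer cells that express a gene and less RNA per cell cannot be told apart.

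**Figure D1:**
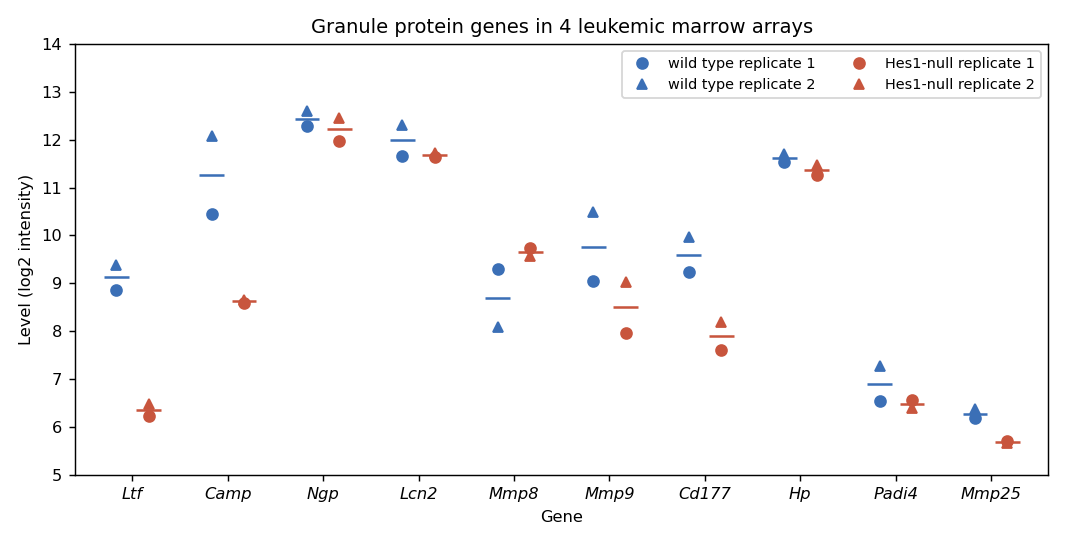
Level of each of the 10 genes (log2 intensity, vertical axis) on each array, with wild type in blue, Hes1-null in red, replicate 1 as a circle and replicate 2 as a triangle; short bars are means of 2 arrays. Ltf lies at 8.87 and 9.38 in wild type and at 6.23 and 6.48 in Hes1-null marrow, whereas the colours overlap for Ngp, Lcn2 and Padi4 and are reversed for Mmp8.

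Ltf encodes lactoferrin, the iron-binding protein of secondary granules that starves microbes of iron. It lay at 8.87 and 9.38 on wild-type replicates 1 and 2 and at 6.23 and 6.48 on Hes1-null replicates 1 and 2. Both Hes1-null arrays were low: the smallest difference between a Hes1-null and a wild-type array was -2.39, while the wild-type arrays were 0.51 apart. By limma Ltf fell by 2.77 ± 0.23 (6.83-fold, 95% interval -3.36 to -2.19, adjusted p = 0.0398) and ranked 8 from the lowest difference of all genes. Leaving out wild-type replicate 2 ended the call (difference -2.51, adjusted p = 0.0726), as did leaving out Hes1-null replicate 2 (-2.90, adjusted p = 0.0775).

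Camp encodes the cathelicidin precursor, from which proteases release an antimicrobial peptide after the granule is emptied. Its levels were 10.44 and 12.07 in wild type and 8.59 and 8.66 in Hes1-null marrow. The Hes1-null arrays agreed to within 0.06, whereas the wild-type arrays were 1.62 apart, and the genotypes did not overlap. The difference was -2.63 ± 0.51 (6.20-fold, 95% interval -3.92 to -1.34). Its p by limma was 0.00292 before adjustment and 0.217 after. With 1 array left out the difference ran from -3.45, without wild-type replicate 1, to -1.82, without wild-type replicate 2.

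Ngp encodes neutrophilic granule protein, a relative of the cathelicidins that shares their cystatin-like fold. Its probe set was bright in both genotypes, at 12.29 and 12.60 in wild type and at 11.98 and 12.45 in Hes1-null marrow. The genotypes overlapped, since Hes1-null replicate 2 lay above wild-type replicate 1. The difference was -0.23 ± 0.19 (95% interval -0.70 to 0.24, adjusted p = 0.830). The lower bound of -0.70 lies above the upper bounds of Ltf (-2.19) and Camp (-1.34). Without Hes1-null replicate 1 the difference was 0.0046.

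Lcn2 encodes lipocalin-2, a secondary granule protein that captures bacterial siderophores. Its levels were 11.67 and 12.31 in wild type and 11.64 and 11.73 in Hes1-null marrow. Wild-type replicate 2 was the high array, and the other 3 lay within 0.10 of each other. The difference was -0.30 ± 0.22 (95% interval -0.85 to 0.24, adjusted p = 0.795), and 0.019 without wild-type replicate 2.

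Camp, Ngp and Ltf lie in that order on mouse chromosome 9, with 8 protein-coding genes between Camp and Ngp and 20 between Ngp and Ltf in the RefSeq annotation of GRCm38.p6. Of these 28 intervening genes 27 were measured. By limma 0 of the 27 passed the adjusted threshold and 0 had an unadjusted p under 0.05. Their differences ran from -0.49 to 0.23 with a median of -0.07, and the genotypes were separated for 6 downward and 1 upward, where 20.6% and 17.4% of all genes were, so the downward share is near that of all genes. The intervening gene with the lowest difference was Cdc25a, a cell cycle phosphatase gene, named after its value was seen. The interval was examined after the values of Ltf and Camp were known.

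**Figure D2:**
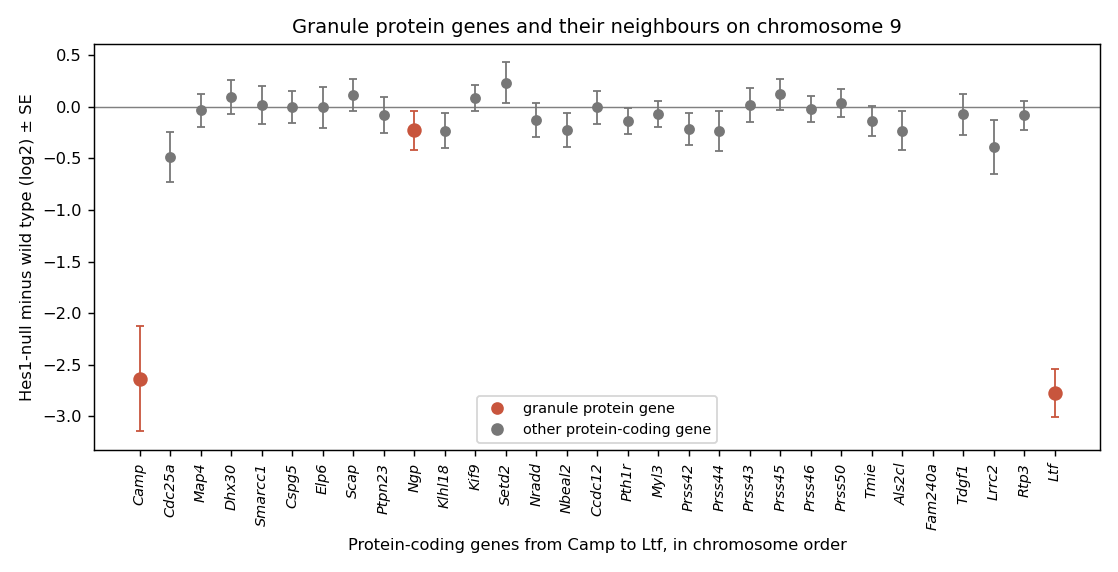
Difference between genotypes (Hes1-null minus wild type, log2, with SE) for the protein-coding genes from Camp to Ltf in chromosome order, with granule protein genes in red and others in grey; a gene with no point was not measured. Camp (-2.63) and Ltf (-2.77) stand at the ends of the interval far below the 27 grey points, which run from -0.49 to 0.23, and Ngp (-0.23) lies among the grey points.

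The RefSeq promoter table (GRCm38.p6) matched 8 of the 10 genes and had no entry for Hp and Mmp9. The 250 bases before the transcription start are printed for the 3 neighbours on chromosome 9, which differed in response, for Cd177, the next lowest, and for Mmp8, whose difference had the opposite sign. Each is read 5′ to 3′ on the strand of the gene, and capitals mark matches to the C/EBP pattern TTNNGNAA on either strand.
Ltf, chr9:111019042-111019291, plus strand: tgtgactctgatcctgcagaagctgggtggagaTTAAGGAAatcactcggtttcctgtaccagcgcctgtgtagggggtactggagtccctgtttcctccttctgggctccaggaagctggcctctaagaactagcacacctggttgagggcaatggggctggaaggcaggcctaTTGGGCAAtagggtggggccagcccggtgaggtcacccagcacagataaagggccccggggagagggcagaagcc
Camp, chr9:109849457-109849706, minus strand: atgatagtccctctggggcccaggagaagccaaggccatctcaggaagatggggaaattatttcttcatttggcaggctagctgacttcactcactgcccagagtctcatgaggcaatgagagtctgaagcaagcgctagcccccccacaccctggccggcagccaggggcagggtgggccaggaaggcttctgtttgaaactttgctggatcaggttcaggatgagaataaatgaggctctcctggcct
Ngp, chr9:110419558-110419807, plus strand: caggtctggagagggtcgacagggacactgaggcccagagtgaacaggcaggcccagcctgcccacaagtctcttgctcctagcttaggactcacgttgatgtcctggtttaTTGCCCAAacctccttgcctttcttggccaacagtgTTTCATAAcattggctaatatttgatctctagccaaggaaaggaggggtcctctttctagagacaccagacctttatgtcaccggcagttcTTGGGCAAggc
Cd177, chr7:24760312-24760561, minus strand: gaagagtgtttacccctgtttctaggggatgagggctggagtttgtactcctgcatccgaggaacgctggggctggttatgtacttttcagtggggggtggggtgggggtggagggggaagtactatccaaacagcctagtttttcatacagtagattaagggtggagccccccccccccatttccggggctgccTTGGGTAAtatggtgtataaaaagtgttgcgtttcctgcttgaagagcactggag
Mmp8, chr9:7558179-7558428, plus strand: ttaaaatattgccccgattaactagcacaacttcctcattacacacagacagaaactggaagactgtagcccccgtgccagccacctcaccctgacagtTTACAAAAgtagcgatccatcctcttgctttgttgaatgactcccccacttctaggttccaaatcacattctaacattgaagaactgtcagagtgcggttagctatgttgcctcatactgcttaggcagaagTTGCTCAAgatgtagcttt
The C/EBP pattern was found in 5 of the 8 windows and in 36.8% of all 32851 promoter windows of that length. Ngp held 3 matches, Ltf and Mmp8 held 2 each, Cd177 and Lcn2 held 1 each, and Camp, Padi4 and Mmp25 held 0. The ETS core GAGGAA, a pattern of PU.1 and its relatives, was found in 5 of the 8 windows (23.3% of all windows), in Ltf, Lcn2, Mmp8, Cd177 and Mmp25. For the patterns bound by Hes proteins, the class C site CACGNG occurred in 1 of the 8 (Mmp8, 23.5% of all windows) and the N box CACNAG in 1 (Ngp, 36.7%). Both strands were searched, the letters CACGAG would count for both Hes patterns, and no matches to different patterns overlapped in the 8 windows. These are letter matches and not binding sites, and a window without a match says nothing of the factor.

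Among the metalloproteinases, Mmp8 and Mmp9 had differences of opposite sign. Mmp8 encodes neutrophil collagenase, which secondary granules hold as a proenzyme. Its levels were 9.30 and 8.09 in wild type and 9.73 and 9.57 in Hes1-null marrow, so that both Hes1-null arrays were the higher ones. The nearest arrays of the genotypes were 0.26 apart, less than the 1.22 between the wild-type arrays. The difference was 0.95 ± 0.40 (95% interval -0.06 to 1.97, adjusted p = 0.615), and it ran from 0.34 without wild-type replicate 2 to 1.56 without wild-type replicate 1.

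Mmp9 encodes gelatinase B, the defining cargo of tertiary granules. It lay at 9.05 and 10.49 in wild type and at 7.97 and 9.04 in Hes1-null marrow. The highest Hes1-null array differed from the lowest wild-type array by -0.01, and the 2 arrays of a genotype were 1.43 and 1.07 apart in wild type and Hes1-null marrow, respectively. The difference was -1.26 ± 0.56 (95% interval -2.68 to 0.15, adjusted p = 0.647). Its size depended on the arrays, from -0.55 without wild-type replicate 2 to -1.98 without wild-type replicate 1, and it was -0.73 without Hes1-null replicate 1.

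Mmp25 encodes a metalloproteinase tethered to the neutrophil membrane by a lipid anchor. Its probe set was dim, with levels of 6.18 and 6.36 in wild type and 5.71 and 5.66 in Hes1-null marrow. The genotypes did not overlap, and each had arrays close together. The difference was -0.59 ± 0.14 (95% interval -0.94 to -0.24), with limma p-values of 0.00679 unadjusted and 0.304 adjusted. The deposited values carry no detection calls, so how much of so dim a signal is background cannot be read from them.

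Cd177 encodes a lipid-anchored surface protein that is stored in secondary granules and holds proteinase 3 on the neutrophil membrane. Its levels were 9.23 and 9.96 in wild type and 7.61 and 8.19 in Hes1-null marrow. Both Hes1-null arrays were low, and the smallest difference between arrays of the genotypes was -1.04. The difference was -1.69 ± 0.32 (3.23-fold, 95% interval -2.51 to -0.88). By limma its p was 0.00268 unadjusted and 0.210 adjusted. Prtn3, which encodes proteinase 3, had a difference of -0.80 ± 0.10 (adjusted p = 0.0862).

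Hp encodes haptoglobin, which binds free haemoglobin and is packed into secondary granules as well as made by the liver. Its levels were 11.53 and 11.69 in wild type and 11.27 and 11.47 in Hes1-null marrow. The smallest difference between arrays of the genotypes was -0.06, and the difference of the means was -0.24 ± 0.13 (95% interval -0.56 to 0.08, adjusted p = 0.707). Padi4 lay at 6.54 and 7.28 in wild type and at 6.56 and 6.39 in Hes1-null marrow. Wild-type replicate 2 was its high array and the other 3 lay together, so the genotypes overlapped (difference -0.43 ± 0.27, 95% interval -1.10 to 0.25, adjusted p = 0.767).

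**Figure D3:**
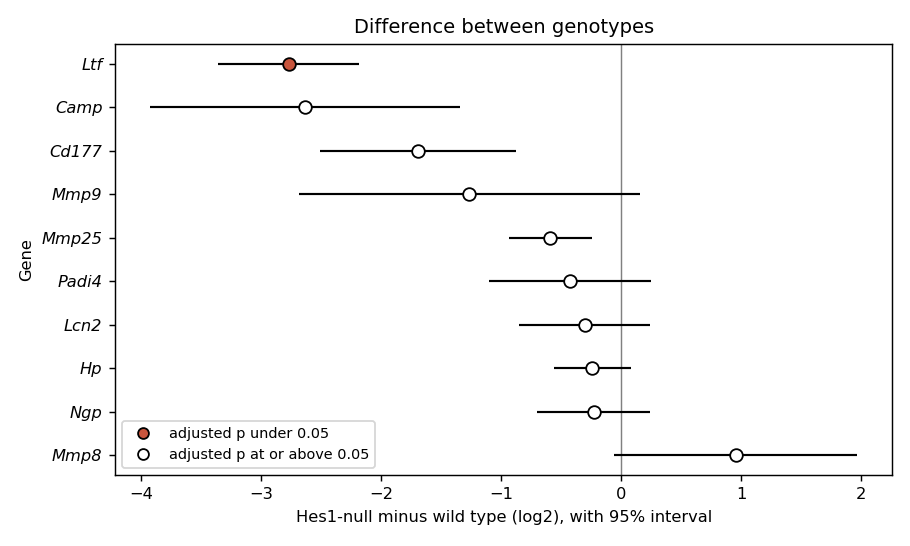
Difference between genotypes (Hes1-null minus wild type, log2, horizontal axis) with its 95% interval from limma for the 10 genes, ordered by size; the filled point has an adjusted p under 0.05. The intervals of Ltf, Camp, Cd177 and Mmp25 lie below 0 and the other 6 hold 0, with Mmp8 at 0.95 on the far side.

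The spread between arrays of the same genotype was itself large for these genes. Wild-type replicate 2 lay above replicate 1 for 9 of the 10, with Mmp8 the exception, where 46.9% of all genes did. The wild-type arrays were at least 2-fold apart for 3 of the 10, Camp (1.62), Mmp9 (1.43) and Mmp8 (-1.22, replicate 2 minus replicate 1). Between the Hes1-null arrays 1 of the 10 was that far apart, Mmp9 (1.07), and replicate 2 was the higher for 7 of the 10 (56.2% of all genes). For 5 of the 10 genes, Ngp, Lcn2, Mmp8, Mmp9 and Padi4, the gap between the wild-type arrays exceeded the difference between genotypes, as it did for 42.0% of all genes. The median SE of the 10 was 0.25, against 0.17 over all genes.

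**Figure D4:**
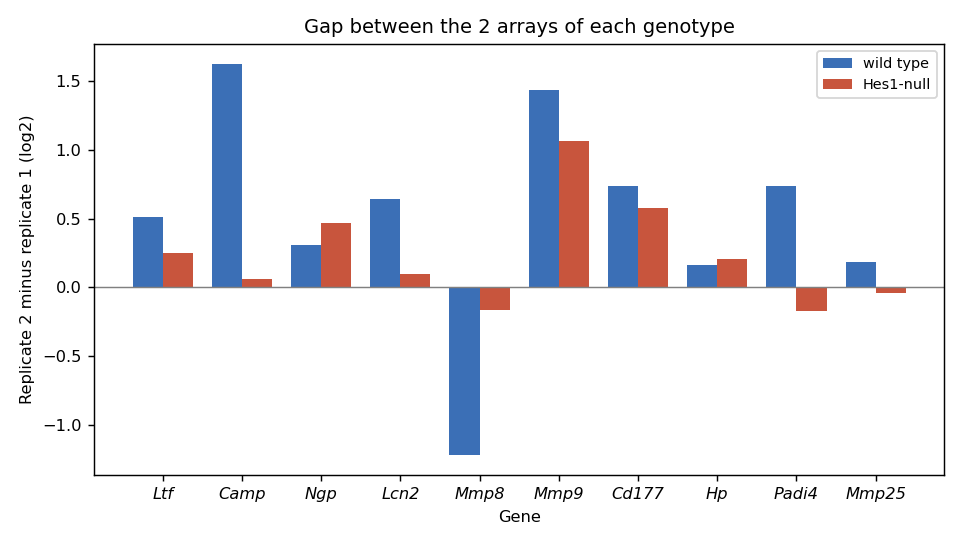
Replicate 2 minus replicate 1 (log2, vertical axis) within wild type (blue bars) and within Hes1-null marrow (red bars) for the 10 genes, 2 arrays per genotype. In wild type the bars of Camp and Mmp9 reach 1.62 and 1.43 and that of Mmp8 reaches -1.22, while in Hes1-null marrow only Mmp9 (1.07) exceeds 1.

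Of the other late neutrophil genes, a list of 50 cytosolic, membrane and granule genes, 39 were measured. By limma 0 of them passed the adjusted threshold, 14 were lower and 4 higher at an unadjusted p under 0.05, and both Hes1-null arrays lay below both wild-type arrays for 22 and above them for 5. Over all genes 4.78% were lower and 3.51% higher at that p, and 20.6% and 17.4% had both arrays below or above. Their median difference was -0.51, the same as that of the 10 genes to this precision. Replicate 2 lay above replicate 1 for 33 of the 39 in wild type (46.9% of all genes) and for 29 in Hes1-null marrow (56.2%). Olfm4, the gene of a secondary granule glycoprotein, lay at 11.05 and 11.83 in wild type and at 10.05 and 10.01 in Hes1-null marrow (difference -1.41 ± 0.26, adjusted p = 0.206). Trem3, a gene of an activating myeloid receptor, had a difference of -1.02 ± 0.16 (adjusted p = 0.142), and Wfdc21, of the whey acidic protein family, one of -0.56 ± 0.14 (adjusted p = 0.333). Ceacam10, of the carcinoembryonic antigen family, lay on the other side with 5.08 and 5.92 in wild type and 7.83 and 7.35 in Hes1-null marrow (difference 2.09 ± 0.32, adjusted p = 0.142). Late neutrophil genes thus lay on both sides of 0 but mostly below it. The difference was below 0 for 30 of the 39, and for 9 of the 10 (53.6% of all genes).

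Primary granule genes, which precede the 10 in maturation, had a median difference of -0.97. Of 15 listed genes 14 were measured, and by limma 1 fell with an adjusted p under 0.05 (0.0752% of all genes) and 0 rose. At an unadjusted p under 0.05, 8 were lower and 0 higher, where 4.78% of all genes were lower and 3.51% higher. The difference was below 0 for 9 of the 14 (53.6% of all genes). Both Hes1-null arrays lay below both wild-type arrays for 8 (20.6%) and above them for 2 (17.4%), and 4 overlapped. Plbd1, encoding a phospholipase B-like hydrolase, fell by 1.85 ± 0.17 (adjusted p = 0.0452). The call ended without wild-type replicate 1 (adjusted p = 0.148), wild-type replicate 2 (0.171) or Hes1-null replicate 2 (0.0615), with genes below the 25th percentile (0.0558) or the median of level (0.0728) left out, and with robust moderation (0.0538). Fcnb, encoding a ficolin that recognises microbial sugars, had a difference of -3.41 ± 0.45 (adjusted p = 0.0968), and the elastase gene Elane one of -1.61 ± 0.18 (adjusted p = 0.0789). Elane passed when the arrays were quantile normalized again (adjusted p = 0.0475) and with array weights (0.0228). Fcnb passed without wild-type replicate 1 (-4.09, adjusted p = 0.0228). Without Hes1-null replicate 1 the difference was -1.87 for Elane and -0.76 for Prtn3. A test of primary against secondary granule genes was not made.

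**Figure D5:**
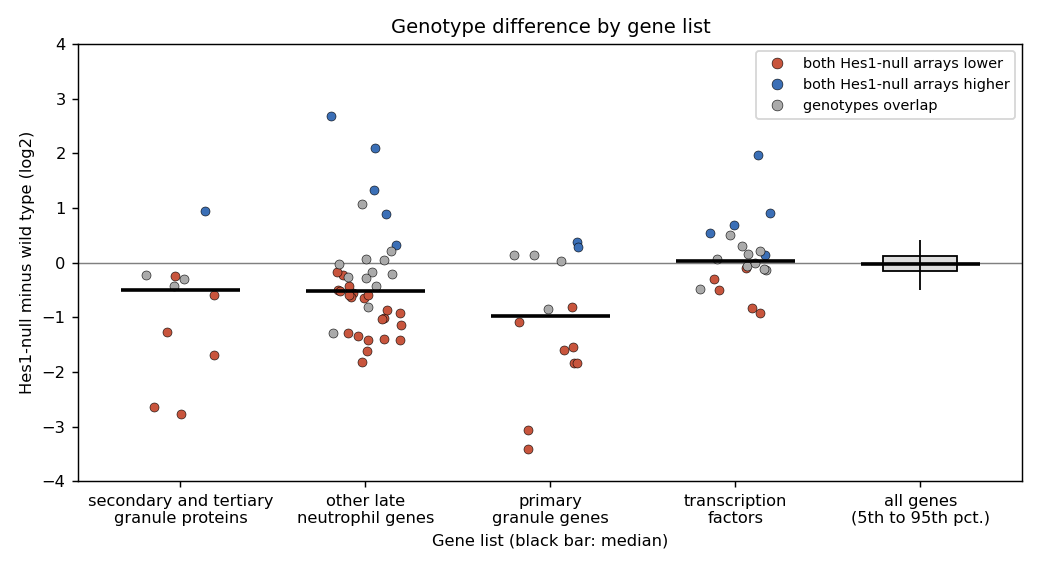
Difference between genotypes (Hes1-null minus wild type, log2, vertical axis) for each measured gene of 4 lists, with medians as black bars; red points have both Hes1-null arrays lower, blue both higher, grey overlap, and the box with whiskers gives all genes (25th to 75th and 5th to 95th percentiles). Medians are -0.51 for the 10 genes, -0.51 for other late neutrophil genes, -0.97 for primary granule genes and 0.02 for transcription factors.

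Transcription factors linked to granulocyte maturation were listed together whatever their role, and the difference was below 0 for 10 of the 20 (53.6% of all genes). As the roles differ, the median of the list cannot show whether factors that drive maturation share a direction. All 20 listed were measured, 0 passed the adjusted threshold by limma, and the median difference was 0.02. At an unadjusted p under 0.05, 2 were lower (4.78% of all genes) and 2 higher (3.51%). Irf8, which favours monocytes over granulocytes, had a difference of -0.84 ± 0.12 (adjusted p = 0.123), and Runx1, a factor of early myeloid cells, one of -0.92 ± 0.15 (adjusted p = 0.155). Fos and Id2, an AP-1 subunit and an inhibitor of E proteins, had differences of 1.97 ± 0.49 (adjusted p = 0.341) and 0.91 ± 0.26 (adjusted p = 0.424). Without Hes1-null replicate 1 a lone Hes1-null array remains, assumed to vary like the wild-type arrays. No call of these 4 genes is read from that fit. Cebpe, the gene of C/EBP epsilon, was singled out after its values were seen. It lay at 8.91 and 9.75 in wild type and at 9.32 and 8.36 in Hes1-null marrow, an overlap of the genotypes with a difference of -0.49 ± 0.42 (adjusted p = 0.840).

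Partners of these proteins (inhibitors, receptors and surface binders) were measured for 15 of 19 listed genes. By limma 0 passed the adjusted threshold. At an unadjusted p under 0.05, 0 were higher (3.51% of all genes) and 3 were lower (4.78%). Besides Prtn3 these were Csf3r, the receptor of granulocyte colony-stimulating factor (-0.51 ± 0.17, adjusted p = 0.529), and Hmox1, which degrades the heme that haptoglobin helps to clear (-0.92 ± 0.36, adjusted p = 0.595). Reck, a membrane inhibitor of metalloproteinases, had a difference of -0.22 ± 0.12 (adjusted p = 0.724). Among 37 measured relatives in the same gene families 0 passed by limma. At an unadjusted p under 0.05, 4 of them were lower (4.78% of all genes) and 0 higher (3.51%). Padi2, a second arginine deiminase, lay at 9.13 and 9.54 in wild type and at 7.91 and 8.02 in Hes1-null marrow (difference -1.37 ± 0.20, adjusted p = 0.129), apart from its relative Padi4, whose genotypes overlapped. The metalloproteinase genes Mmp13 and Mmp28 had differences of -0.93 ± 0.17 (adjusted p = 0.188) and -0.84 ± 0.17 (adjusted p = 0.236), and Stfa2, a cysteine protease inhibitor of the stefin family, one of -1.15 ± 0.45 (adjusted p = 0.595).

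Summed levels of markers of other marrow cells and of immediate early genes are set beside those of the 10, and their part in the values of the 10 genes was not tested. The summed intensity of the 10 genes was 14989 and 22492 on the wild-type arrays and 11591 and 14030 on the Hes1-null arrays (without Camp 13595 and 18195 against 11205 and 13627, an overlap). That of 18 of 20 listed monocyte and macrophage markers was 20279 and 18937 against 14807 and 14228. By limma 9 of the 18 were lower (4.78% of all genes) and 0 higher (3.51%) at an unadjusted p under 0.05. The difference was below 0 for 13 (53.6%). Both Hes1-null arrays lay below both wild-type arrays for 12 (20.6%) and above them for 1 (17.4%). At the adjusted threshold 1 fell, Vcam1 (-2.62 ± 0.17, adjusted p = 0.0242). That call ended with wild-type replicate 2 or Hes1-null replicate 2 left out. Sums in wild type against Hes1-null marrow were 1060 and 1338 against 968 and 1114 for 13 of 14 eosinophil, basophil and mast cell markers, an overlap of the genotypes. They were 1238 and 1229 against 712 and 740 for 8 of 12 platelet markers, and 1402 and 1411 against 747 and 610 for 13 of 14 T and NK cell markers. For 13 of 14 stromal and endothelial markers they were 1374 and 1302 against 1128 and 1031. At an unadjusted p under 0.05 by limma, 5 of the 8 platelet and 5 of the 13 T and NK cell markers were lower. At that p 3 of the 13 stromal and endothelial markers were lower. Over all genes 4.78% were lower and 3.51% higher, and in these 3 lists 0 were higher. The genotypes overlapped in the sums of 11 of 12 B cell markers (1337 and 1322 against 1887 and 1104). They did not overlap in those of 10 of 16 erythroid markers (956 and 796 against 766 and 773), but overlapped without Alas2, Slc4a1 or Tfrc. Progenitor markers (12 of 12) summed to 12059 and 11616 against 15342 and 12355. Flt3, a receptor tyrosine kinase gene singled out after its values were seen, carried that separation, since without it the sums were 10938 and 10999 against 11805 and 9465, which overlap. At an unadjusted p under 0.05 by limma, 1 progenitor marker was higher (3.51% of all genes), Flt3 (1.94 ± 0.30, adjusted p = 0.142). At that p 2 were lower (4.78%), Cd48 (-0.54 ± 0.15, adjusted p = 0.397) and Kit (-1.60 ± 0.60, adjusted p = 0.578). Immediate early genes (16 of 16) summed to 5347 and 5985 against 14376 and 23295, and Jun among them rose by 2.70 ± 0.16 (adjusted p = 0.0231, but 0.0700 without wild-type replicate 2). The monocyte, platelet, T and NK cell, stromal and immediate early sums stayed apart with each gene left out in turn, an alternative chosen after seeing the data. Such sums are carried by their brightest genes, and 2 of these were not left out together. The T and NK cell sums were 863 and 1178 against 677 and 543 without Cd28. Without Nkg7 they were 1122 and 797 against 577 and 554. The platelet sums without Itgb3 were 634 and 779 against 445 and 454. The stromal sums without Pecam1 were 800 and 819 against 605 and 683. No marker is listed at 0, since the lowest log2 level of any gene was 1.41.

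Genes of similar pattern were searched with unnamed transcripts, olfactory and vomeronasal receptor genes and small RNAs left out. Those whose 4 levels, centred on their own mean, lay nearest to the median profile of the 10 were Glipr2, Gtsf1l, Cyp2b9, Fgr, Pik3cb and Gng11. Their root mean square distance over the 4 arrays was 0.02 to 0.04 on the log2 scale. That profile stood highest on wild-type replicate 2 (0.50), near its mean on wild-type replicate 1 (0.06) and lowest on the Hes1-null arrays (-0.34 and -0.23). Fgr, a Src family kinase gene of myeloid cells, lay at 7.43 and 7.87 in wild type and at 6.99 and 7.08 in Hes1-null marrow (difference -0.62 ± 0.20, adjusted p = 0.505). Gtsf1l and Cyp2b9 were dim, with no level above 5.68. The median profile is flatter than Ltf or Camp and opposite to Mmp8, so likeness to it is not likeness to each of the 10.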

How the data were processed

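Total RNA of leukemic whole marrow was run on MoGene-1_0-st-v1 arrays, 1 per sample. Per the submitters' processing notes, the deposited intensity values came from RMA in Affymetrix Expression Console. Versions are not given in the sources used here. They are on a linear scale, so log2 was taken with nothing added. Of 35556 probe sets, 21789 have 1 gene symbol in the platform annotation; the brightest stood for each of 19938 genes, with no filter on level. Genotypes came from the sample labels. The test was limma 3.58.1 under R 4.3.3 (lmFit, eBayes with an intensity trend, two-sided, genotype as the only term, 2 residual and 3.41 prior degrees of freedom), with Benjamini-Hochberg adjustment over all genes. The script was tried on simulated data. The 10 genes and all lists were chosen with earlier results of these data known. Named are the 10, Hes1, each described list's genes with an adjusted p under 0.05 and up to 4 with the smallest p. The 6 genes of most similar pattern among those searched are named as well. In the lists of markers and immediate early genes those with an adjusted p under 0.05 are named. Also named are progenitor markers with an unadjusted p under 0.05 by limma and erythroid markers without which the sums overlapped. Bright T and NK cell, platelet and stromal markers left out of their sums are named too, singled out after their values were seen. Promoter letters came from RefSeq (GRCm38.p6). Alternatives were the replicate number as a block, scaling, filters on level, moderation, array weights, 16 added before log2, the mean of probe sets, each probe set separately and each array left out.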

Additional observations from a re-analysis of the deposited data

How the results depend on the processing

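Over up to 15 alternatives per gene, 141 of 149 differences of the 10 genes kept their direction and side of the threshold, 4 (all of Ltf) no longer passed, 2 newly passed and 2 changed sign. Much of that agreement was fixed beforehand. The block, the filters, the moderation and the probe set settings cannot change a difference in this balanced design with a single probe set per gene. Apart from Ltf, the 10 genes had adjusted p-values from 0.210 upward by limma in the main fit, so keeping their side of the threshold says little. The differences that newly passed were of Camp, in a fit with a lone wild-type array, and of Cd177. The call of Ltf ended when genes below the 25th percentile or below the median of level were left out (adjusted p = 0.0525 and 0.0728 by limma, with fewer genes tested) and without wild-type replicate 2 or Hes1-null replicate 2. The number of the 10 called was 0 at both filters. At an unadjusted p under 0.05 by limma it was 4 and 3, and the filter at the median left out Mmp25 itself. With the replicate number as a block 6 had an unadjusted p under 0.05 by limma. With that block 2 were called, Ltf and Cd177 (adjusted p = 0.0131 and 0.0359 by limma). The number called also moved with 1 array left out. Over all genes the count was 89 with the block, 17 and 5 at the filters and 45 with array weights, and it ran from 6, without wild-type replicate 2, to 999, without Hes1-null replicate 1, against 29. The sign changed for differences near 0. With 1 array left out that of Lcn2 ran from -0.63 to 0.019 (above 0 without wild-type replicate 2), that of Ngp from -0.46 to 0.0046 (above 0 without Hes1-null replicate 1) and that of Hes1 from -0.26 to 0.15 (0.042 without wild-type replicate 2). The cause of these changes was not tested. The median of the 10 ran from -0.74 to -0.33 with 1 array left out. The series' design text speaks of pairs of marrows without saying which arrays form one. The labels do not say that the number pairs arrays, so it was not taken as a pairing. Across all genes the replicate gaps of the genotypes had a correlation of 0.05. With 2 arrays per genotype that value cannot show whether arrays are paired. Among the 39 other late neutrophil genes, replicate 2 was the higher for 33 in wild type and 29 in Hes1-null marrow (46.9% and 56.2% of all genes). With the block Elane and Fcnb also passed (adjusted p = 0.0250 and 0.0173). Where an array was left out, the lone array of a genotype was assumed to vary like the other genotype.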
